A study of Mus musculus with 2 samples.

Results

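Erythroid cells, which run from erythroblasts through reticulocytes to red blood cells, were chosen by hemoglobin content, as every barcode with 50% or more of its UMIs on the adult hemoglobin genes *Hba-a1*, *Hba-a2*, *Hbb-bs* and *Hbb-bt* together. A barcode marks the RNA of 1 droplet, and a unique molecular identifier (UMI) marks 1 captured mRNA molecule, so that PCR copies are counted once. Of 12415 deposited barcodes, 233 met the rule, with 161 of 6978 in library 1 and 72 of 5437 in library 2. This is 2.31% of barcodes in library 1 (exact binomial 95% interval 1.97 to 2.69) and 1.32% in library 2 (1.04 to 1.66), and all intervals cover counting error only.

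Both libraries, replicates 1 and 2 of the same condition, are single-cell RNA-seq of cells from the striatum of adult mice without treatment, made with the 10x Genomics 3′ chemistry after digestion with pronase, filtration and removal of debris. The labels give an age of 8 to 10 weeks, call the cells glia enriched, and give the strain both as C57/Bl6J and as C57BL/6NTac. No genotype other than the strain and no agent other than those of the dissociation is named for either library, and how many mice went into each is not given in the sources used here. The study's methods describe the mice as male and somewhat younger than the labels do, and give their total over the experiment but not per library. Library 1 held 44597660 UMIs and library 2 held 37982720, with medians of 3852 and 5375 UMIs per barcode.

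An erythroblast fills with hemoglobin, expels its nucleus and becomes a reticulocyte, which still carries mRNA and translates globin. The reticulocyte then clears its mitochondria, ribosomes and remaining RNA by ubiquitin-dependent proteolysis and autophagy and becomes an erythrocyte. Its proteins serve hemoglobin (globin chains, heme, iron), the membrane skeleton and blood group antigens, the enzymes against oxidants, and bisphosphoglycerate, which sets oxygen affinity. Hemoglobin mRNA is so abundant in these cells that other transcripts are read from a small remainder.

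The hemoglobin genes lie in clusters on separate chromosomes. In the mm10 annotation *Hba-a1* is at chr11:32283511-32284465 and *Hba-a2* at chr11:32296489-32297298, both on the plus strand. *Hbb-bs* is at chr7:103826534-103828096 and *Hbb-bt* at chr7:103812524-103813996, both on the minus strand. *Alas2*, which encodes the erythroid form of the first enzyme of heme synthesis and was not used by the rule, is on the plus strand at chrX:150547375-150570638. Because these genes are read out together in the same barcodes, the 130 bases before the RefSeq start of 4 of them are shown (GRCm38.p6, each on the strand of its gene), with capitals marking the CACCC box (letters CACCC), the CCAAT box (letters CCAAT), the GATA motif (letters GATAA) and the TATA box (letters TATAA), each searched on both strands.
Hbb-bs: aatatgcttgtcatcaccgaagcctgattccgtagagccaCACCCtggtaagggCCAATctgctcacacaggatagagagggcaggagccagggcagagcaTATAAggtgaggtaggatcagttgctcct
Hbb-bt: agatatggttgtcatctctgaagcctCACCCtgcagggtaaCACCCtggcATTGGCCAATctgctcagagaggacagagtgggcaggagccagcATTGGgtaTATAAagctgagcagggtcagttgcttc
Hba-a1: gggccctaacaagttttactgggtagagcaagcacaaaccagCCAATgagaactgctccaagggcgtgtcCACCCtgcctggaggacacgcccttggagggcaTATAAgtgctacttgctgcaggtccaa
Alas2: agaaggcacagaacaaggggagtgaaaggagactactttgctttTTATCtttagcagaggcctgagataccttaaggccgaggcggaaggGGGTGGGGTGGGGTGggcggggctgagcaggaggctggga
These windows are chr7:103827929-103828058, chr7:103813924-103814053, chr11:32283542-32283671 and chrX:150547287-150547416, in that order. The RefSeq starts differ from the ends of the gene spans given above, so the *Hbb-bs* and *Hba-a1* windows lie wholly inside those spans and the *Hbb-bt* and *Alas2* windows partly. The *Hba-a2* window is not printed because 247 of 247 compared bases before its start match those of *Hba-a1* at a shift of 3 bases. The globin windows each hold a CACCC box, a CCAAT box and a TATA box and no GATA motif, with 2 CACCC boxes and 3 CCAAT boxes in *Hbb-bt*. *Alas2* holds 3 adjacent CACCC boxes on the other strand and 1 GATA motif there. None of the matches overlap. Over all 32851 RefSeq promoters read in the same window, 33.7% hold the CACCC letters, 22.4% the CCAAT letters, 12.7% those of the TATA box and 11.4% those of the GATA motif, so each match is a description and not a binding site.

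The rule separated a sparse upper group from nearly all other barcodes. The 3 barcodes just inside the threshold had 50%, 50.6% and 51.3% hemoglobin in library 1 and 54.3%, 63.6% and 68.1% in library 2. The 3 just outside had 44.8%, 43.5% and 42.2% in library 1 and 48.1%, 34.4% and 33.1% in library 2. Between 10% and 50% lay 23 barcodes in library 1 and 11 in library 2, and these and all others with less hemoglobin are the other barcodes below.

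**Figure D1:**
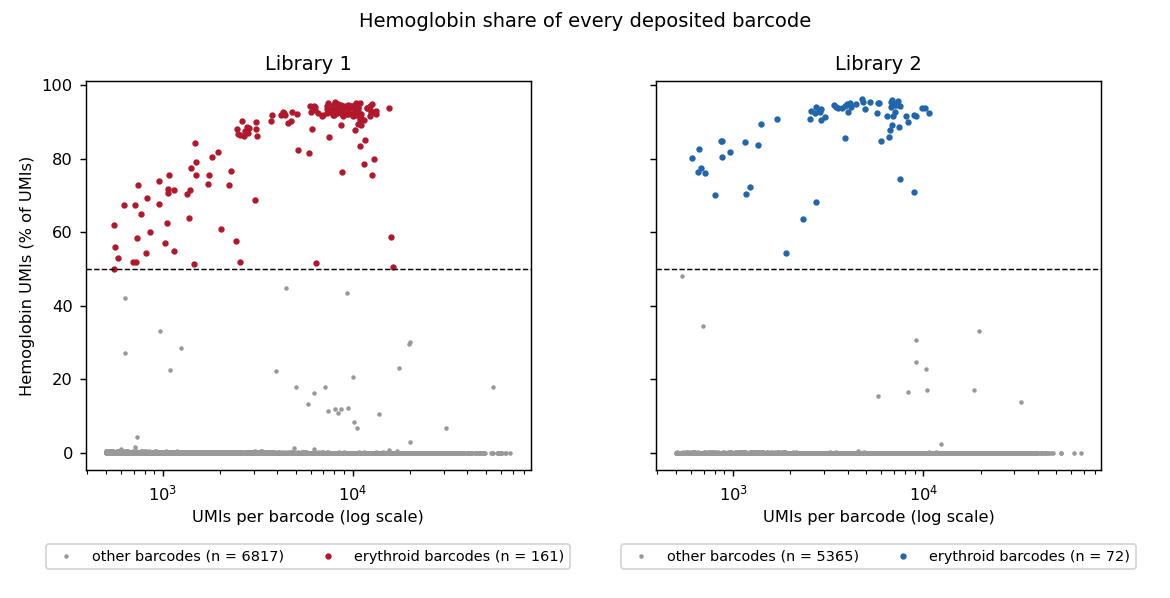
Each point is 1 deposited barcode, with its total UMIs on a log axis and the percentage of its UMIs on the 4 hemoglobin genes on the vertical axis, and the dashed line is the 50% threshold. The 161 and 72 erythroid barcodes reach 95.4% and 96.4%, and 6786 of 6817 and 5353 of 5365 other barcodes are under 1%.

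Most erythroid barcodes were almost pure hemoglobin. The median hemoglobin share was 91.8% in library 1 and 92.2% in library 2, with 92 of 161 and 46 of 72 barcodes at 90% or more. The erythroid barcodes were poor in different genes in both libraries. They held a median of 7409 UMIs in library 1 (552 to 16174) against 3803 in the other barcodes, and 4065 in library 2 (607 to 10671) against 5388, so that they were deeper than the others in library 1 and shallower in library 2. They had medians of 304 and 165 detected genes, against medians of 1744 and 2303 detected genes in the other barcodes. A minimum of 300 detected genes would keep 83 of 161 and 12 of 72. After hemoglobin was set aside, the median barcode had 525 UMIs in library 1 and 273 in library 2, and the sums that the results below rest on were 114221 and 30549 UMIs.

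A few erythroid barcodes carried many genes. In library 1, 7 barcodes had 1000 or more detected genes, at 50.6% to 80% hemoglobin, and they held 24.3% of the erythroid non-hemoglobin UMIs of that library. In library 2 there was 1, at 71.0% hemoglobin, with 8.46%. No doublets were removed from the deposited barcodes or here, and values without these barcodes are given where they move a result. The libraries shared 9 barcode sequences, none of them erythroid in either library.

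Hemoglobin UMIs also reached barcodes of other cell types, more so in library 1. At least 1 hemoglobin UMI was found in 53.0% of the other barcodes of library 1 (51.9 to 54.2) and in 11.3% of those of library 2 (10.5 to 12.2), with medians of 1 and 0 UMIs. Barcodes with *Snap25*, *Syt1* and *Meg3*, a set of neuronal transcripts, carried one in 57.4% of 188 cases in library 1 (median depth 5571.5 UMIs) and 11.5% of 148 in library 2 (5594.5). Barcodes with the astrocyte transcripts *Slc1a2*, *Aldoc* and *Gja1* did so in 51.0% of 931 cases (2998 UMIs) and 10.3% of 825 (5357). Over 6 such sets of transcripts the share ran from 48.9% (44.8 to 52.9) in barcodes with *Cldn5*, *Flt1* and *Ly6c1* (3269.5 UMIs) to 63.4% (60.4 to 66.3) in those with the oligodendrocyte transcripts *Mog*, *Mag* and *Mobp* (10985 UMIs) in library 1. In library 2 it ran from 6.09% (2.48 to 12.1) in barcodes with *Rgs5*, *Vtn* and *Pdgfrb* (3704 UMIs) to 15.4% (13.3 to 17.8) in those with *Mog*, *Mag* and *Mobp* (12340 UMIs). The shares thus differed between sets, highest in the deepest one of both libraries, and between libraries. The erythroid barcodes themselves held 94.3% and 91.5% of all hemoglobin UMIs of their libraries.

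*Alas2* checked the label with a gene outside the rule. It was detected in 130 of 161 erythroid barcodes of library 1 (80.7%) and 56 of 72 of library 2 (77.8%). It was found in 30 of 6817 and 15 of 5365 other barcodes, of which 12 and 6 were under 1% hemoglobin. In UMIs, *Alas2* had 143 and 69 beside 56465 and 27156 of hemoglobin in the other barcodes, and 2134 and 641 beside 934765 and 293276 in the erythroid ones, so in proportion to hemoglobin it was about as frequent in the others. The 47 erythroid barcodes without *Alas2* met the rule on hemoglobin alone.

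*Hbb-bs* was the most abundant hemoglobin transcript in both libraries. It gave 60.1% of the erythroid hemoglobin UMIs in library 1 and 65.6% in library 2. *Hba-a1* gave 16.3% and 13.6%, *Hba-a2* 12.7% and 10.5%, and *Hbb-bt* 10.98% and 10.3%. The order of the 4 genes was the same in both libraries, and the last pair lay close to each other in library 2. UMIs of 3′ libraries count molecules and were not divided by transcript length. The division between *Hba-a1* and *Hba-a2* is uncertain, since 66.9% and 56.3% of the 50-base words in their last 200 bases occur in the other gene too. Of the words in the last 200 bases of *Hbb-bs*, over its 2 annotated transcripts, 50% occur in *Hbb-bt*, and none of those of *Hbb-bt* occur in *Hbb-bs*, so the division between the beta genes is uncertain to that extent.

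The ratio of alpha to beta globin UMIs was below 1 and differed between the libraries. Summed over erythroid barcodes it was 0.407 in library 1 and 0.317 in library 2. Over single barcodes the median was 0.419 in library 1 (quartiles 0.366 and 0.475) and 0.329 in library 2 (0.280 and 0.375), so that the middle ranges overlapped slightly. With 1 condition and 2 libraries the difference was not tested.

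*Hbb-bt*, the adult beta gene with fewer UMIs, varied most between erythroid barcodes. Its share of beta globin UMIs ran from 0 to 28.0% in library 1 and from 0.170% to 25.5% in library 2, with medians of 11.2% and 8.06%. Under 5% lay 59 barcodes of library 1 and 30 of library 2, while 78 and 28 were at 12% or more. The share was lower in barcodes of low UMI total. When the barcodes of each library were divided by UMIs into 3 groups of like size (low, middle and high), the median *Hbb-bt* share was 1.53%, 10.2% and 18.7% from the low to the high group of library 1. In library 2 it was 1.98%, 8.06% and 17.5%, so the groups followed the same order. Spearman's rho between the share and UMIs was 0.852 over 161 barcodes of library 1 and 0.899 over 72 of library 2, and 0.863 and 0.893 in the 117 and 61 barcodes at 80% hemoglobin or more. Barcodes of 1 library share its suspension and sequencing, and the UMI total contains the beta globin UMIs themselves.

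The other proportions moved less with UMIs. The *Hba-a2* share of alpha globin UMIs was 43.8% and 43.4% in the libraries, and the summed share stayed between 41.4% and 44.3% in all 3 groups of either library. The alpha to beta ratio had medians of 0.489, 0.413 and 0.399 from the low to the high group of library 1 and 0.377, 0.289 and 0.335 in library 2. In other barcodes under 1% hemoglobin, *Hbb-bt* made up 12.5% of the beta globin UMIs in library 1 (11.5 to 13.5) and 9.03% in library 2 (6.79 to 11.7), values between those of the low and high erythroid groups.

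**Figure D2:**
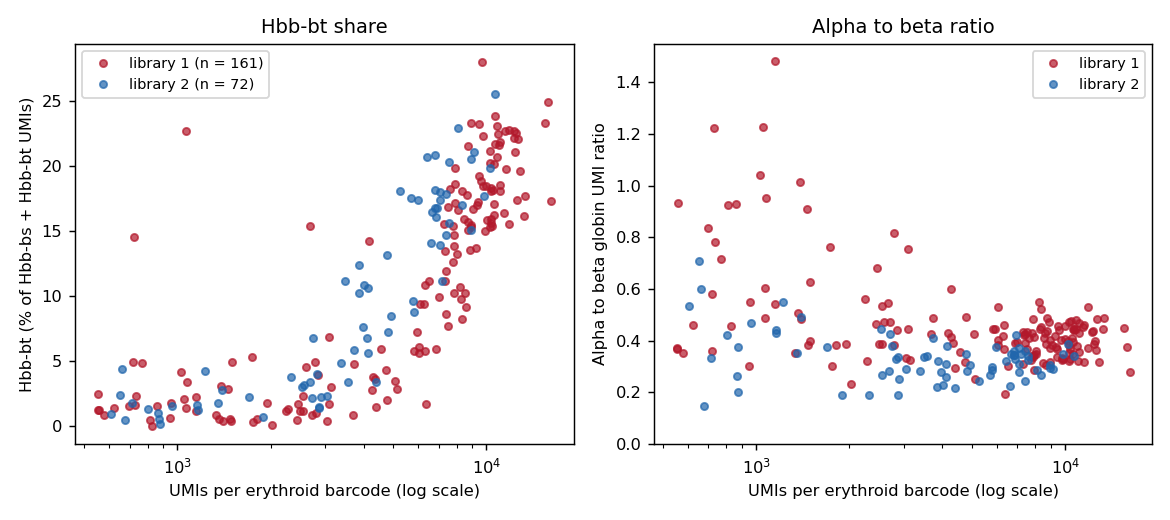
Each point is 1 erythroid barcode, placed by its UMIs on a log axis and by the Hbb-bt share of beta globin UMIs (left) or the ratio of alpha to beta globin UMIs (right), coloured by library. The Hbb-bt share is mostly under 5% at low UMI totals and reaches 28.0% and 25.5% at high ones, while the ratio scatters most at low totals.

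Embryonic and theta globins were near the detection limit, and the embryonic *Hbb-bh1* was found in erythroid barcodes of library 2 alone. *Hbq1a*, a theta globin gene, had 28 and 16 erythroid UMIs and 1 and 2 UMIs in all other barcodes. The ratio of its shares was 10662 in library 1 (exact 95% interval 1763 to 435961) and 9855 in library 2 (2317 to 88349). Its near copy *Hbq1b* had 19 and 8 UMIs, and reads may be divided between them. *Hbb-bh1*, an embryonic beta-like chain, had 0 UMIs in library 1 and 13 in library 2, in 11 of 72 barcodes. *Hbb-y*, another embryonic chain, had 0 and 2 erythroid UMIs against 26 and 26 in the other barcodes.

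Non-hemoglobin transcripts were compared between the erythroid barcodes and all other barcodes of the same library as shares of the non-hemoglobin UMIs, scaled to CPM of these. Of 850 genes tested, 116 were higher in the erythroid barcodes and 74 lower by edgeR's quasi-likelihood test at a Benjamini-Hochberg adjusted p under 0.05, where libraries 1 and 2 moved alike. The share of genes called is 13.6% for higher and 8.71% for lower. The test removed the 4 hemoglobin genes that chose the barcodes. Both groups of a library share 1 suspension, so the p-values measure the spread between 2 libraries, which may be technical, with 1 residual degree of freedom and a spread estimated jointly over genes.

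A gene that passed the filter on low counts through 1 side of the comparison alone could be called in 1 direction only. Of the 850 genes, 109 passed only through their level in the erythroid barcodes, and 73 of these were called higher and 0 lower. A further 184 passed only through the other barcodes, with 0 higher and 34 lower. Among the 741 genes whose level in the other barcodes alone passed the filter, 43 were higher (5.80%) and 74 lower (9.99%). Of the tested genes in the 11 erythroid lists below, 23 passed only through their erythroid level and 15 through the other barcodes too, and 7 of these 15 rose. With another scaling, TMM, the median log2 difference over all genes moved from -0.23 to -0.0089 and 72.3% of the calls were higher, against 61.1% here, and all 116 rises were called there too. Without the barcodes of 1000 or more genes, 154 genes rose and 164 fell of 735 tested.

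The non-hemoglobin UMIs were concentrated on few genes. The 10 most abundant held 17% of the erythroid non-hemoglobin UMIs in library 1 and 21.4% in library 2, against 13.8% and 14.4% in the other barcodes. Over both libraries, by scaled sums, the leading 10 in the erythroid barcodes were *Gm42418*, *mt-Atp6*, *Alas2*, *Bpgm*, *Ftl1*, *mt-Co3*, *Malat1*, *Ubb*, *mt-Co1* and *Mkrn1*.

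Of the heme synthesis genes, those of the first and last enzymes were abundant enough to be tested. *Alas2* was at 18683 CPM in the erythroid barcodes of library 1 and 20983 CPM in those of library 2, against 3.29 and 1.83 CPM in the others (log2 difference 12.90 ± 0.46 SE, edgeR adjusted p = 0.000226). *Fech*, ferrochelatase, which inserts iron into the ring, was at 2600 and 2455 CPM against 37.2 and 46.2 (5.94 ± 0.26). For both genes the erythroid sums lay far above the others in each library. These 2 of the 8 genes of the heme list passed the filter, both only through their erythroid level, and the other 6 were not tested. Of the intermediate enzymes, *Urod* had 14 and 0 erythroid UMIs and *Cpox* 9 and 1, too few to be tested. Together the list took 2.16% and 2.35% of erythroid non-hemoglobin UMIs and 0.0356% and 0.0381% of the others.

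*Slc25a37*, *Slc25a39* and *Glrx5*, of the iron supply list, were higher, and all 3 passed the filter only through their erythroid level. *Slc25a37*, mitoferrin-1, the mitochondrial iron importer, was at 1173 and 2030 CPM against 19.8 and 26.1 (6.07 ± 0.28). *Slc25a39*, the mitochondrial glutathione carrier, was at 2425 and 2455 CPM against 58.0 and 51.1 (5.48 ± 0.24). *Glrx5*, which serves iron-sulfur cluster assembly, was at 1147 and 1440 CPM against 92.5 and 86.7 (3.82 ± 0.27). These 3 of the 4 tested genes of the iron supply list rose and none fell. *Snx3*, a sorting nexin of transferrin receptor recycling, was at 429 and 458 CPM against 313 and 273 and did not pass (adjusted p = 0.184). No UMI of the heme exporter *Flvcr1* or of the porphyrin transporter *Abcb6* was found in erythroid barcodes.

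The ferritin chains parted. *Ftl1*, the ferritin light chain, was at 16564 and 18659 CPM against 1297 and 1000 in the others (3.95 ± 0.24). *Fth1*, the heavy chain with the ferroxidase site, was at 10532 and 11326 CPM against 8471 and 9657 (0.27 ± 0.17, adjusted p = 0.304). The other barcodes are no low reference for *Fth1*, which stood at 19007 and 20676 CPM in barcodes with *Mog*, *Mag* and *Mobp*, above the erythroid level. *Ftl1* was at 972 and 828 CPM in those same barcodes.

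Of 12 listed genes of the ubiquitin system 6 were tested. *Ubb*, the 1 of these that passed the filter through the other barcodes too, which encodes ubiquitin itself, was at 15479 and 17873 CPM against 2982 and 2306 (2.66 ± 0.23). *Mkrn1*, a RING-type ubiquitin ligase, was at 12415 and 18004 CPM against 106 and 98.2 (7.19 ± 0.30). *Ube2l6*, a conjugating enzyme that also serves the ubiquitin-like protein ISG15, was at 6986 and 8576 CPM against 9.01 and 6.43 (9.96 ± 0.37). *Ube2o*, the hybrid enzyme that marks ribosomal and other proteins for removal in reticulocytes, was at 578 and 917 CPM against 23.9 and 26.0 (4.83 ± 0.30). With *Fbxo9* (2.87 ± 0.37) and *Ube2h* (2.58 ± 0.37), 6 of 6 tested genes rose, but *Ube2l6*, *Ube2o*, *Fbxo9*, *Mkrn1* and *Ube2h* passed the filter only through their erythroid level and could be called in that direction alone. The other 6 genes were not tested. The list took 3.69% and 4.74% of erythroid UMIs against 0.351% and 0.283%.

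Organelle clearance genes were raised in 3 of 4 cases tested. All 4 passed the filter through the other barcodes too, where 5.80% of all genes were called higher. *Bnip3l*, also called Nix, the receptor for the removal of mitochondria in reticulocytes, was at 5095 and 5336 CPM against 372 and 374 (3.80 ± 0.20). *Gabarapl2*, an autophagy protein of the Atg8 family, was at 3948 and 5172 CPM against 398 and 360 (3.57 ± 0.24), and *Map1lc3b*, of the same family, at 2626 and 2357 against 329 and 296 (2.996 ± 0.21). *Gabarap*, also of that family, was at 735 and 622 CPM against 487 and 451 and did not pass (adjusted p = 0.173), but it was called higher with members at 80% hemoglobin (0.89, adjusted p = 0.00710) and with members under 1000 genes (0.74, adjusted p = 0.0299). *Alox15*, a lipoxygenase known from rabbit reticulocytes, had no erythroid UMI.

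Enzymes of gas exchange and redox defence were led by *Bpgm*. *Bpgm*, bisphosphoglycerate mutase at chr6:34476207-34505613, was at 17895 and 20590 CPM against 162 and 197 (6.75 ± 0.22, edgeR adjusted p = 0.000191). In the other barcodes it was not evenly low, at 354 and 405 CPM in those with *Mog*, *Mag* and *Mobp*. *Gpx1*, glutathione peroxidase, was at 2408 and 3863 CPM against 143 and 122 (4.52 ± 0.32), and *Prdx2*, an abundant red cell peroxiredoxin, at 3213 and 3699 against 523 and 358 (2.98 ± 0.27). *Blvrb* (3.70 ± 0.28), biliverdin reductase B, and the catalase gene *Cat* (2.53 ± 0.40) also rose, 5 of 7 tested in all, of which *Gpx1*, *Blvrb* and *Cat* passed only through their erythroid level. *Car2*, a red cell carbonic anhydrase that oligodendrocytes also make, was at 1445 and 2291 CPM against 986 and 1229 and did not pass (adjusted p = 0.0743), but it was called higher with TMM (adjusted p = 0.0401), DESeq2 (0.0254), members at 80% (0.00207) and members under 1000 genes (0.00537). *Car1*, a carbonic anhydrase named for red cells, and *G6pdx*, of the pentose phosphate pathway, had no erythroid UMI.

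Of the membrane genes *Epb41* was abundant, and many others had few or no UMIs. *Tspo2*, a red cell membrane protein, had 28 and 19 UMIs against 1 and 2 (ratio 10662, exact 95% interval 1763 to 435961, and ratio 11703, 2823 to 103612). *Epb41*, protein 4.1 of the membrane skeleton, was at 1628 and 2390 CPM against 33.6 and 30.7 (5.92 ± 0.31). It was the 1 of 2 tested genes of the membrane skeleton list that rose, beside *Tpm1*, a tropomyosin, at 201 and 262 CPM against 201 and 217 (adjusted p = 0.872). Of the 14 membrane protein genes 4 were tested and 2 rose, *Tspo2* among them, and 7 had no erythroid UMI: *Rhag*, *Rhd*, *Kel*, *Xk*, *Ermap*, *Icam4* and *Aqp1*. With 3 counts taken as the limit for a count of 0, no UMI in 114221 and 30549 allows a level of up to 26.3 and 98.2 CPM, while the upper ends of the exact 95% intervals lie at 32.3 and 121 CPM.

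*Slc2a1*, the glucose transporter of brain endothelium and of human red cells, was decided by a few barcodes. It was at 989 CPM in the erythroid barcodes of library 1 and 32.7 CPM in those of library 2, against 516 and 234 in the others. Without the barcodes of 1000 or more genes it was at 185 and 35.8 CPM, so the direction in library 1 turned. Endothelial markers went the same way: the list of 8 took 0.338% and 0.0491% of erythroid UMIs against 0.260% and 0.253%, and 0.110% and 0.0536% without those barcodes, with *Ly6c1* at 78 and 0 UMIs, *Cldn5* at 68 and 4 and *Itm2a* at 67 and 5. Of 7 endothelial markers tested, edgeR and DESeq2 called 0 and none had an unadjusted p under 0.05, and without those barcodes 3 of 4 tested were lower. The part of endothelial RNA in the *Slc2a1* value was not tested.

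*Isg20*, *Tent5c* and *Rsad2*, of the list of other reticulocyte transcripts, were among the 12 largest rises. *Isg20*, an interferon-inducible exonuclease, was at 3616 and 3699 CPM against 3.63 and 2.79 (10.11 ± 0.30). *Tent5c*, a poly(A) polymerase, was at 2924 and 3634 CPM against 13.5 and 14.9 (7.83 ± 0.25), and *Rsad2*, viperin, at 1366 and 1473 against 10.6 and 7.55 (7.27 ± 0.33). With *Bcl2l1*, the survival factor Bcl-xL (1.86 ± 0.35), 5 of 5 tested genes of this list rose, all of which passed the filter only through their erythroid level. *Epor*, the erythropoietin receptor, had no erythroid UMI.

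The 12 largest rises by the fixed rule also held less familiar genes. *Rec114*, named for meiotic recombination, was at 525 and 786 CPM against 0.644 and 0.345 (10.03 ± 0.56). *Fam220a* was at 893 and 1637 CPM against 2.85 and 2.76 (8.67 ± 0.40), and *Gm10371* at 271 and 426 against 0.460 and 0.638 (9.04 ± 0.18). All 3 lay higher in both libraries, and they passed the filter only through their erythroid level.

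**Figure D3:**
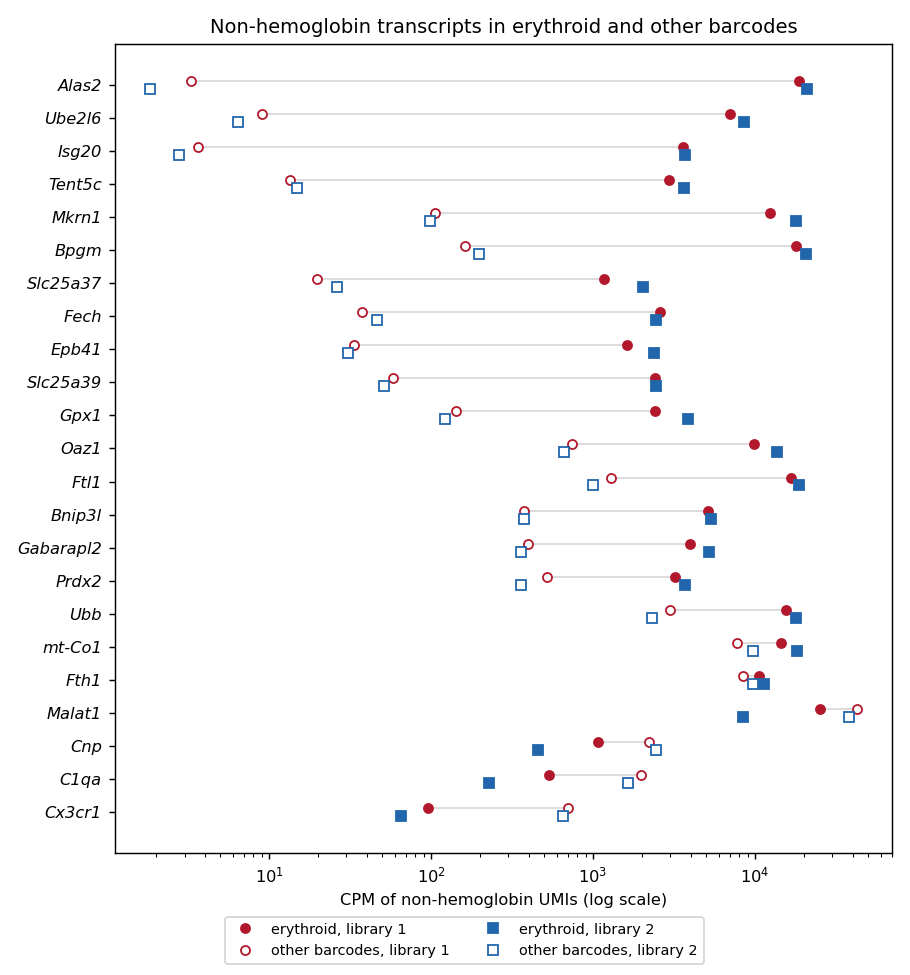
Levels of 23 non-hemoglobin genes on a log axis in CPM of non-hemoglobin UMIs, filled for erythroid and open for all other barcodes, with circles for library 1, squares for library 2 and grey lines joining the library 1 values. Alas2 at 18683 and 20983 CPM stands over 3.29 and 1.83, Fth1 differs little, and microglia and oligodendrocyte genes lie lower in erythroid barcodes.

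*Alas2* was seen in the same barcodes as other reticulocyte genes. Over the 233 erythroid barcodes the genes whose detection followed that of *Alas2* most closely included *Ube2l6* (phi 0.625), *Mkrn1* (0.589), *Oaz1* (0.543) and *Bpgm* (0.536). *Ube2l6* was found in 161 of the 186 barcodes with *Alas2* and in 8 of the 47 without. *Oaz1*, ornithine decarboxylase antizyme, which lowers polyamine synthesis, was at 9893 and 13650 CPM against 742 and 658 (4.05 ± 0.26). These coefficients describe detection, which rises with the number of non-hemoglobin UMIs that a barcode has.

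The same genes were scarce in the erythroid barcodes of low UMI total. *Alas2* was at 2673, 22894 and 21960 CPM from the low to the high group of library 1 and at 4470, 28635 and 24189 CPM in library 2. *Bpgm* was at 1337, 14226 and 25443 CPM, and at 1079, 14688 and 30193 in library 2. *Mkrn1* was at 764, 9735 and 17776 CPM and at 1233, 12314 and 26498. *Alas2* thus stepped up once between the low and the middle group, while *Bpgm* and *Mkrn1* were higher again in the high group of both libraries. The ubiquitin list took 1.02%, 3.40% and 4.75% of non-hemoglobin UMIs over the 3 groups of library 1 and 0.879%, 3.81% and 6.54% in library 2. Mitochondrial mRNAs ran the other way, at 14.2%, 8.88% and 7.74% and at 16.8%, 9.93% and 9.68%. The low groups also had less hemoglobin, with median shares of 71.6%, 92.7% and 93.0% in library 1 and 82.3%, 94.1% and 92.3% in library 2, and held more of some other cell types. Oligodendrocyte markers took 1.42%, 0.977% and 0.772% of non-hemoglobin UMIs in library 1 and 0.786%, 0.682% and 0.416% in library 2. Microglia markers took 0.363%, 0.273% and 0.119% in library 1, and had 8 or fewer UMIs in any group of library 2. Astrocyte markers took 0.530%, 0.584% and 0.169% in library 1 and 0.786%, 0.757% and 0.854% in library 2. Endothelial markers ran up in library 1, at 0.0621%, 0.129% and 0.540%. These shares include the barcodes of 1000 or more genes. Without those barcodes the endothelial UMIs of library 1 went from 386 to 95. The astrocyte UMIs of library 2 went from 250 to 170 without its 1 such barcode, which lay in the high group. The shares by group were not recomputed without them. The part of RNA from other cells in the levels of the 3 groups was not tested. The groups are a description of barcodes within a library and carry no test.

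**Figure D4:**
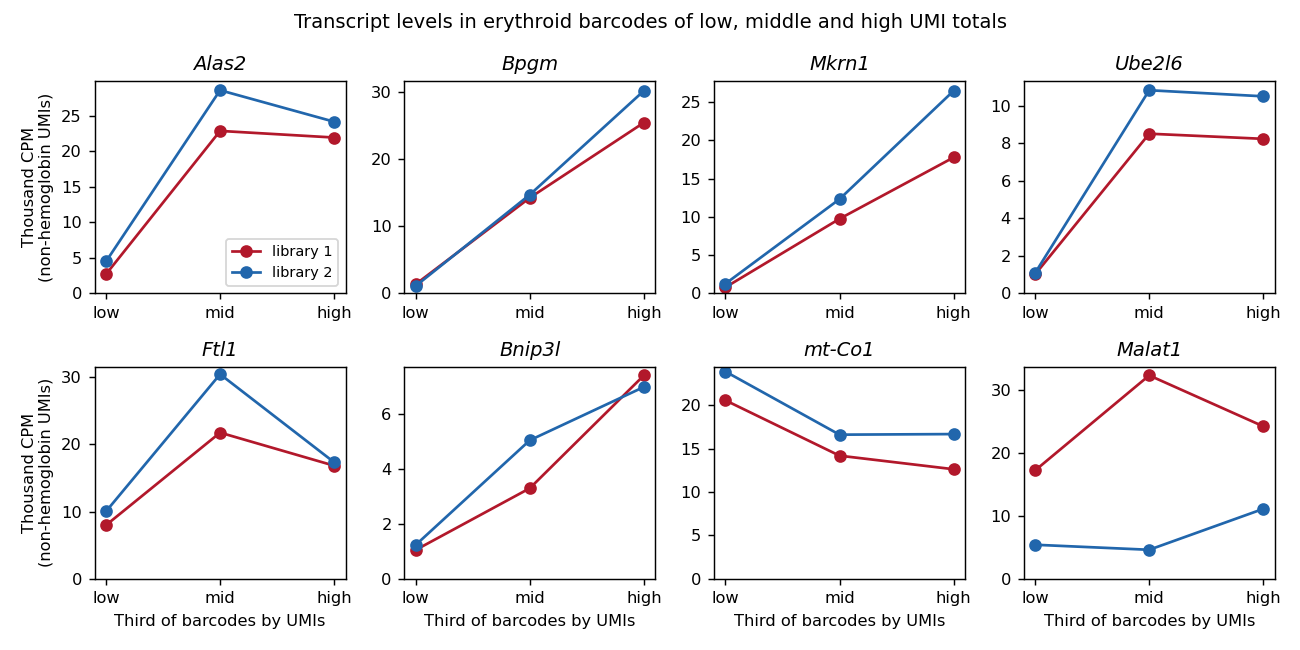
Level in CPM of non-hemoglobin UMIs, divided by 1000, of 8 genes in the erythroid barcodes of the low, middle and high group by UMIs (53, 54 and 54 barcodes in library 1, 24 each in library 2), each panel with its own axis from 0. Alas2, Bpgm, Mkrn1 and Ube2l6 are lowest in the low group of both libraries, and mt-Co1 is highest there.

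Mitochondrial transcripts were modestly higher over all erythroid barcodes. The 13 mitochondrially encoded mRNAs took 9.24% and 11.2% of erythroid non-hemoglobin UMIs against 5.36% and 6.87%. Of the 11 tested 6 were higher and none lower. The count depended on the setting, at 0 of 11 with no replicate block, 0 of 12 with members at 30% hemoglobin, 0 of 11 with at least 300 detected genes and 1 of 11 with members at 80%, and at 9 of 11 with TMM, with DESeq2 and with members under 1000 genes. *mt-Co1*, a subunit of cytochrome oxidase, was at 14525 and 18200 CPM against 7691 and 9655 (0.92 ± 0.17, edgeR adjusted p = 0.0240), and *mt-Atp6*, of ATP synthase, at 19874 and 23143 against 11634 and 14930 (0.70 ± 0.17, adjusted p = 0.0481). *mt-Co2* missed the threshold at 0.67 ± 0.17 (adjusted p = 0.0549) and passed it with TMM, with DESeq2, with members under 1000 genes and against other barcodes under 1% hemoglobin. Ribosomal protein mRNAs differed little, at 7.76% and 6.54% of erythroid UMIs against 7.31% and 5.74%, with 3 of 78 tested genes higher and none lower.

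*Gm42418*, a locus that overlaps ribosomal RNA sequence, was the most abundant non-hemoglobin feature by scaled sums over both libraries. In library 1 alone it was not, with *Malat1* at 25144 CPM and *mt-Atp6* at 19874 among the genes above it. *Gm42418* was at 13535 CPM in the erythroid barcodes of library 1 and 41147 CPM in those of library 2, against 3351 and 6592 (2.33 ± 0.23), a rise that missed the threshold with no replicate block (adjusted p = 0.0582). It was found in all 161 and all 72 erythroid barcodes. Among the 10 leading genes, this locus and *Malat1* differed most between the libraries, in opposite directions.

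The list of RNAs known to stay in the nucleus, mostly *Malat1*, was below the other barcodes in library 2 and closer to them in library 1. *Malat1* held 2872 of its 3050 erythroid UMIs in library 1 and 258 of 269 in library 2. *Meg3* was at 981 and 131 CPM against 555 and 539, and *Snhg11* at 280 and 131 against 193 and 262, so both lay above the others in library 1. Without the barcodes of 1000 or more genes *Meg3* was at 243 and 143 CPM and *Snhg11* at 92.5 and 143. *Malat1* was at 25144 CPM in library 1 and 8445 CPM in library 2, against 42694 and 37857 in the others (-1.45 ± 0.38, adjusted p = 0.0549), and was called lower with members at 80% hemoglobin (-2.51, adjusted p = 0.00924) and with both other filters on low counts. Without the barcodes of 1000 or more genes it was at 12371 and 9155 CPM, and its UMIs in library 1 went from 2872 to 1070 with the loss of 7 barcodes. The nuclear list took 2.67% and 0.881% of erythroid UMIs against 4.38% and 3.90%, with 0 of 3 tested genes called by edgeR, 1 at an unadjusted p under 0.05, and 1 called lower by DESeq2. Without the barcodes of 1000 or more genes, 2 of 2 tested were lower, *Malat1* by a log2 difference of -1.91.

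Several listed transcription factors and proliferation genes of erythroid precursors had no erythroid UMI. The factors *Gata1*, *Klf1*, *Nfe2*, *Gfi1b* and *Myb* had none in either library. *Lmo2*, an adaptor of the GATA1 complex, was the 1 factor tested and was higher, at 306 and 196 CPM against 78.4 and 91.9 (1.67 ± 0.38, adjusted p = 0.0379). It passed the filter only through its erythroid level, and its 6 UMIs in library 2 were 3 without the 1 barcode of 1000 or more genes. It missed the threshold with members at 30% (adjusted p = 0.108) and was too low to be tested with members at 80%, under 1000 genes or with at least 300. Of the proliferation list, *Top2a*, *Kit*, *Cd44* and *Ccnb1* had 0 UMIs, *Mki67* had 1 and 0 and *Rrm2* 5 and 0. The list summed to 11 and 0 erythroid UMIs, against 0.0292% and 0.0192% of UMIs in the other barcodes.

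Markers of other blood cells had few or no erythroid UMIs, and several were scarce in the other barcodes too. All 8 neutrophil markers, *S100a8* and *S100a9* among them, had 0 erythroid UMIs, against 567 and 2 UMIs in the other barcodes (0.00130% of UMIs in library 1). Of 8 platelet markers only *Itga2b* had a UMI, 1 in library 1, and of 8 lymphocyte markers *Cd79b* and *Ighm* had 1 each in library 1. In the other barcodes the platelet list took 0.00220% and 0.00188% of UMIs and the lymphocyte list 0.00442% and 0.00647%. The 8 macrophage markers summed to 26 and 2 UMIs, 0.0228% and 0.00655% against 0.0415% and 0.0325% in the others. *Mrc1* led them at 8 and 1 UMIs, each from 1 barcode, and was at 70.0 and 32.7 CPM against 45.2 and 31.6, so it was not lower.

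Transcripts of striatal cells were present at levels that differed by cell type. Over all 850 genes tested, 8.71% were called lower. Microglia markers were lower in 7 of 7 genes tested, at 0.207% and 0.0655% of erythroid UMIs against 0.941% and 0.834%, led by *C1qa* at 61 and 7 UMIs. Of these 7 genes *Cx3cr1*, *P2ry12*, *Csf1r* and *C1qc* passed the filter only through the other barcodes and could be called in that direction alone. Oligodendrocyte markers were lower in 6 of 8, at 0.948% and 0.553% against 2.76% and 3.02%, with *Cnp*, a myelin enzyme, at 1068 and 458 CPM against 2228 and 2463 (-1.57 ± 0.37, adjusted p = 0.0415, and 0.0581 with TMM). The oligodendrocyte count was 4 of 8 with TMM, 1 of 7 with at least 300 detected genes and 0 of 8 with members at 30%, where that of microglia markers was 7 of 7, 3 of 4 and 6 of 8. Of 3 mural markers tested *Vtn* was lower (-2.07 ± 0.43), and *Sox11* was the 1 neuroblast marker tested and was lower (-2.83 ± 0.56, 8 and 0 erythroid UMIs). Both passed the filter only through the other barcodes. *Sox11* missed the threshold with no replicate block (adjusted p = 0.0720) and with members at 30% (0.0580), and was too low to be tested with members at 80%, under 1000 genes or with at least 300. *Vtn* missed it with members at 30% (adjusted p = 0.106) and was not tested with at least 300 genes. Astrocyte markers gave 0 calls in 6 tested by edgeR (1 at an unadjusted p under 0.05), 1, higher, by DESeq2 and with members under 1000 genes, and 1 of 4, lower, with members at 80%, at 0.351% and 0.818% against 0.331% and 0.377%, led by *Slc1a2* at 137 and 80 UMIs. The neuron list of 8 took 0.0744% and 0.0720% against 0.0890% and 0.0555%, led by *Penk* at 19 and 9 UMIs. Within it *Snap25*, *Syt1*, *Ppp1r1b*, *Penk* and *Tac1* lay above the other barcodes in both libraries, with *Penk* at 166 and 295 CPM against 109 and 56.4. *Dcx*, *Dlx2* and *Sox11* lay below them in both, and all but *Sox11* were too low to be tested.

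The largest falls were mostly microglial genes. *Cx3cr1*, the fractalkine receptor, was at 96.3 and 65.5 CPM against 701 and 656 (-2.98 ± 0.35), and *Selplg*, a selectin ligand, at 70.0 and 32.7 against 484 and 391 (-2.93 ± 0.39). *Csf1r*, the receptor for the growth factor that maintains microglia, had 16 and 0 erythroid UMIs (-2.81 ± 0.60), and the complement gene *C1qc* 35 and 0 (-2.84 ± 0.63). *Ctss*, a lysosomal protease, was at 219 and 32.7 CPM against 1015 and 890 (-2.64 ± 0.46). *Desi1*, a desumoylating peptidase, had 5 and 1 UMIs (-2.81 ± 0.45), and *Sox11* is given above. Each of these genes lay lower in both libraries, and passed the filter only through the other barcodes. Their erythroid counts of 0 to 35 UMIs limit the precision, and at such counts the SE can lie below counting error. With members at 30% hemoglobin *Csf1r*, *C1qc*, *Ctss*, *Desi1* and *Sox11* were no longer past the threshold, and *C1qc* was not with DESeq2 or with no replicate block.

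**Figure D5:**
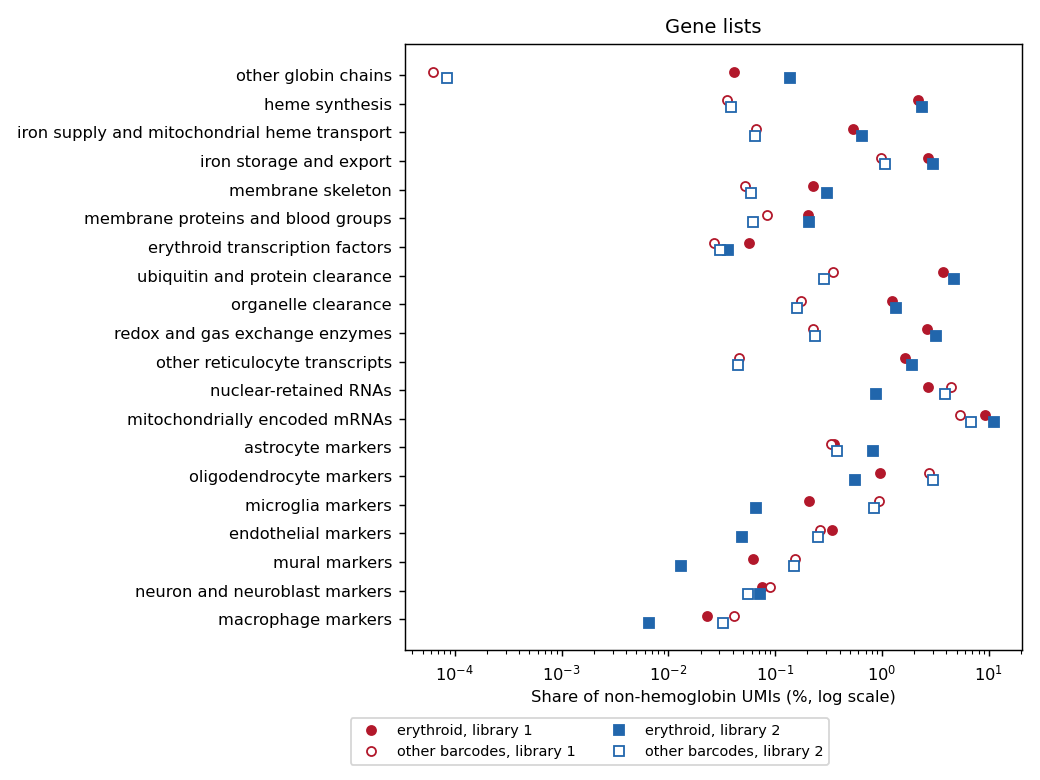
Share of non-hemoglobin UMIs in percent, on a log axis, for 20 of the 24 gene lists (the 4 with 11 or fewer erythroid UMIs are not drawn) in the erythroid (filled) and other barcodes (open) of library 1 (circles) and library 2 (squares). Lists of hemoglobin supply, ubiquitin, redox and reticulocyte genes lie to the right in erythroid barcodes of both libraries, microglia and oligodendrocyte markers to the left, and endothelial markers differ between the libraries.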

How the data were processed

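The authors deposited raw UMI counts of 32285 genes for the barcodes that Cell Ranger called cells, aligned to mm10; the submitters' notes name Cell Ranger 4.0, and the study's methods an earlier version. No normalization, filter on genes or removal of doublets had been applied. Members and lists were chosen with earlier results of these data known.

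Tools were pandas 2.3.3, scipy 1.17.1 and numpy 2.4.6 under python 3.11.15, with matplotlib 3.10.9 for figures. UMIs were summed per library for erythroid and for all other barcodes, and the 4 sums, without the hemoglobin genes, were fitted in edgeR 4.0.16 (R 4.3.3; quasi-likelihood test, library as a block, library size alone, prior count 2). Library as a block follows from the shared suspension. Genes needed a mean of 163.7 CPM, worth 5 UMIs in the smaller erythroid sum. Calls needed a Benjamini-Hochberg adjusted p under 0.05 and the same direction in both libraries. The SE after a log2 difference was derived from the test, as the difference at a smaller prior count divided by the square root of the F statistic. It can lie below counting error where UMIs are few. On simulated data the fit returned changes in the share of UMIs, which under library-size scaling lie below changes in amount where rises outweigh falls.

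The text names the rule's and label's markers and the 10 genes with the most erythroid UMIs by scaled sums over both libraries. It also names the 12 largest rises (at least 10 UMIs in each library) and 8 largest falls among calls. Further named are up to 4 genes a list by UMIs, and the 5 genes most like *Alas2* by phi. A few of these genes are left out of the text. Other genes named were chosen after their values were seen. Of 219 list genes 217 were matched to the counts; *Ahsp* and *Fam46c*, an older name of *Tent5c*, were not analysed here. Intervals are exact (95%). Alternatives were TMM, DESeq2 1.42.0, no block, other filters and thresholds, under 1% hemoglobin in the others, at least 300 genes and each library alone. Members under 1000 genes were added after seeing the data. Promoters are from RefSeq (GRCm38.p6), and positions of genes from an annotation of GRCm38.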

Additional observations from a re-analysis of the deposited data

How the results depend on the processing

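The 116 rises became 59 and the 74 falls 15 when barcodes needed at least 300 detected genes, with 318 genes tested. The falls also moved to 48 with DESeq2, 136 with no filter beyond 1 UMI, 155 with filterByExpr, 148 with members at 80% hemoglobin, 31 with members at 30% and 164 with members under 1000 genes. Other alternatives gave 102 to 161 rises and 52 to 104 falls, and no gene called here was called in the opposite direction by any of them. With no replicate block 112 genes rose and 104 fell, of which 105 and 65 were among the 116 and 74. Genes of the 11 erythroid lists called higher numbered 30, and 20 to 37 under the alternatives. Of the 30, 23 passed the filter only through their erythroid level, where 67.0% of all genes were called higher and none could be called lower. The other 7 were of 15 tested that passed through the other barcodes too, where 5.80% of all genes were called higher. Markers of other cell types called lower numbered 15, beside 74 of all 850 genes tested. These markers moved to 7 with members at 30% and 4 with at least 300 genes. The mean share of barcodes over the libraries, 1.82%, was 0.713% with at least 300 genes, and hemoglobin in the other barcodes, 0.101% of UMIs, was 0.216% with members at 80%.

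The genes that changed sign were not called here. *Slc2a1* (log2 difference 0.31) was at -1.68 with members at 80% and -1.63 under 1000 genes, both past the threshold. *Meg3* (0.04) was at -1.82 and -1.38 in those settings, also past the threshold, and at -0.051 with DESeq2. *Cd47* was at 0.055 with members at 30%, where *Itm2a*, *Cldn5*, *Ly6c1* and *Rgs5* were at 0.72, 0.77, 1.65 and 0.30. With at least 300 genes *Itm2a*, *Cldn5*, *Ly6c1* and *Slc1a3* were at 0.031, 0.12, 0.0046 and 0.24. *Itm2a* was at 0.026 and *Slc1a3* at 0.085 with TMM, *Slc1a3* at 0.12 with DESeq2, and *Clu* at -0.011 with members at 80%. The cause was not tested. Each library alone gives values with no test, and none where a sum is 0: from library 2 to library 1 alone these ran from -2.84 to 0.94 for *Slc2a1*, -2.04 to 0.82 for *Meg3*, -0.999 to 0.54 for *Snhg11*, -2.80 to 1.12 for *Cxcl12*, -1.53 to 0.36 for *Itm2a* and -2.21 to 0.30 for *Cldn5*, and from 0.53 to -0.74 for *Slc1a3*. *Ly6c1* and *Rgs5* were at 0.35 and 0.26 in library 1 and had no UMI in library 2.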

Other observations

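Single genes outside the lists, chosen after their values were seen, are given here as values. All but *Pcp4* and *Lars2* passed the filter only through their erythroid level and could be called by edgeR's quasi-likelihood test in that direction alone. *Isca1*, of iron-sulfur cluster assembly, was at 1628 and 2782 CPM in libraries 1 and 2 against 24.7 and 26.4 in the other barcodes (log2 difference 6.36 ± 0.31), *Bola3* at 718 and 818 against 59.7 and 61.1 (3.65 ± 0.29) and *Iscu* at 832 and 917 against 109 and 108 (2.995 ± 0.24). *Isg15*, an interferon-inducible ubiquitin-like protein, was at 1068 and 1211 CPM against 29.6 and 27.6 (5.30 ± 0.27), and *Irf7*, an interferon regulatory factor, at 228 and 687 against 13.2 and 8.29 (5.19 ± 0.68). In barcodes with the endothelial transcripts *Cldn5*, *Flt1* and *Ly6c1*, *Isg15* was at 276 and 269 CPM and *Irf7* at 111 and 80.2, above the mean of the other barcodes.

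*Ube2c*, a mitotic ubiquitin-conjugating enzyme, was at 875 and 1669 CPM against 75.3 and 48.2 (4.28 ± 0.48). *Pttg1*, securin, was at 482 and 622 against 70.4 and 77.1 (2.87 ± 0.27), and *Nusap1*, a spindle protein, at 280 and 426 against 26.8 and 16.3 (3.96 ± 0.46). *Ube2c* was at 143, 345 and 1400 CPM in the low, middle and high group of erythroid barcodes by UMIs in library 1 and at 308, 148 and 2771 in library 2, so that it was highest in the high group of both.

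*Pcp4*, a calmodulin-binding protein, was at 613 and 753 CPM against 210 and 162 (1.82 ± 0.29). It went the other way over these groups, at 1003, 754 and 407 CPM in library 1 and 2158, 593 and 289 in library 2. *Lars2*, the mitochondrial leucyl-tRNA synthetase gene, was at 657 and 3797 CPM against 141 and 411 (2.72 ± 0.32), and differed between the libraries as *Gm42418* did.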
